A study of Homo sapiens with 18 samples.

Results

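TLE4, the other 3 full-length TLE co-repressors and a set of regulators of canonical Wnt signalling were examined in 6 ovarian cancer cell lines that form 3 pairs of platinum-sensitive and platinum-resistant lines. The genes were taken by symbol: TLE1, TLE2, TLE3, TLE4, AXIN2, LEF1, TCF7L2, DKK1, LGR5 and CTNNB1. The expression table listed 12853 genes, and 7 of these 10 were among them: TLE1 to TLE4, CTNNB1, TCF7L2 and DKK1. AXIN2, LEF1 and LGR5 were not analysed here. The set was selected on the TLE4 level, which was lower in the resistant line of each pair, so the values of TLE4 are given as a description and with no test. The other 6 genes were tested.

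Canonical Wnt signalling starts when a secreted Wnt ligand binds a Frizzled receptor together with an LRP co-receptor. Beta-catenin, the product of CTNNB1, is then no longer degraded, enters the nucleus and binds factors of the TCF/LEF family, among them TCF7L2. Without beta-catenin, TCF/LEF factors hold co-repressors of the TLE family (Groucho in flies), which recruit histone deacetylases and keep target genes off. TLE proteins have no DNA-binding domain of their own and also serve other transcription factors, such as RUNX and HES proteins. DKK1 is a secreted inhibitor that binds the LRP co-receptors, and it is itself known as a target of the pathway.

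RNA was sequenced from 3 libraries of each line, 18 in all, with no drug treatment named for these libraries. A2780 is a platinum-sensitive line, labelled as endometrial/ovarian cancer cells, and CP70 is the resistant line derived from it in culture. The other 2 pairs are of clinical origin, and both lines of a pair share a donor with high-grade serous ovarian cancer. PEA1 was taken from ascites when no chemotherapy had yet been given, and PEA2 once the tumour had come back and no longer responded. The donor of PEO1 and PEO4 had received platinum by the time of either sampling, with PEO1 predating clinical resistance and PEO4 following it. All 6 lines were grown in RPMI-1640 with glutamine and 10% fetal bovine serum. Each pair is a single line against a single line, so a difference within a pair belongs to those lines, and the labels do not say whether the 3 libraries of a line were separate cultures. Every p-value here therefore measures only the spread between libraries, which may be technical.

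Levels are log2 CPM (reads of a gene scaled to the size of the library), and differences are log2 differences, resistant minus sensitive. The libraries held between 1344098 (PEA1) and 7067336 (PEO1) reads on the listed genes, so 3 reads, taken here as the floor, stood for 0.452 to 2.18 CPM. PEA1 was the shallowest line, with 1344098 to 1670866 reads a library. Differences were tested with limma across all 12853 genes and were called at an adjusted p below 0.05. That call was frequent: 39.9% of all genes were called in CP70 against A2780 (22.2% higher and 17.7% lower), 61.9% in PEA2 against PEA1 (32.5% higher and 29.4% lower) and 41.5% in PEO4 against PEO1 (19.6% higher and 21.9% lower). Marker genes set the lines apart as well. Of 9 epithelial markers, 1 exceeded 3 reads in A2780, 4 in CP70, 7 in PEA1 and 9 in each of PEA2, PEO1 and PEO4, and PAX8, a marker of serous ovarian cancer, had 0 to 1 reads in A2780 and CP70. The summed level of these 9 genes was 431 to 589 CPM in PEA1 and 3637 to 3873 CPM in PEA2. The summed level of 5 mesenchymal markers went the other way, from 3171 to 3433 CPM in PEA1 to 180 to 212 CPM in PEA2. The leukocyte gene PTPRC had 46 to 70 reads in PEA2 and at most 2 in every other line, and the endothelial gene CDH5 had 66 to 88 reads in PEA2 and at most 1 elsewhere. Of 5 leukocyte and 4 endothelial markers looked for, only 1 of each was in the expression table. These reads thus describe single genes and not a cell type. The part of these differences in the PEA results below was not tested.

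The start-site sequences of TLE4 and DKK1, whose levels varied most between the lines among these genes, are shown first, because both hold letters that TCF/LEF factors are known to recognise. Sequences are from RefSeq on GRCh38.p14 and run 5′ to 3′ along the gene, from 250 bases before the transcription start to 50 after it. An entry was found for 8 of the 10 genes. Capitals mark CTTTGA or CTTTGT on either strand, read as TCAAAG or ACAAAG on the other strand, and no marked stretch overlaps another.
TLE4 (chr9:79571715-79572014, + strand): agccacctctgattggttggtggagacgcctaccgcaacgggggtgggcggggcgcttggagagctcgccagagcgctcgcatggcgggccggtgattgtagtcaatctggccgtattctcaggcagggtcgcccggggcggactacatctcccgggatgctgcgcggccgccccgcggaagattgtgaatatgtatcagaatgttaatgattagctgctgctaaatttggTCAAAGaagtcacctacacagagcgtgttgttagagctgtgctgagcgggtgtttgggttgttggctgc
DKK1 (chr10:52314031-52314330, + strand): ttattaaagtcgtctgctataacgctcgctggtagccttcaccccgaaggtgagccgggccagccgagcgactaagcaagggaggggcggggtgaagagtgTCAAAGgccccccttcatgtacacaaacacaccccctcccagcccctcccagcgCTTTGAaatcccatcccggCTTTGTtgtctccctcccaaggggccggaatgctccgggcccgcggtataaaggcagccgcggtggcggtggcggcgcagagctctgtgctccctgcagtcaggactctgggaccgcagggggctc
The TLE4 window held 1 match, whose first letter lay 19 bases before the start. The DKK1 window held 3 matches, at 149, 95 and 76 bases before the start. Of 27305 windows of the same length, 13.1% held CTTTGA, 16.0% held CTTTGT and 26.3% held either, so a single match as in TLE4 is common. How many windows held 3 matches, as in DKK1, was not counted. The windows of TLE1, TLE2, TLE3, CTNNB1, TCF7L2 and LEF1 held 0 matches, which says only that these letters are not in those windows. The G+C content was 58.7% for TLE4 and 63.7% for DKK1, against a median of 58.3% over all windows. A match is a run of letters and was not tested for binding.

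TLE4 (ENSG00000106829) lies on chromosome 9 from 82186688 to 82341797 on the + strand of GRCh37, the build named by the submitters as hg19. Its product represses TCF/LEF targets in the absence of beta-catenin and is also known as a partner of PAX5 and RUNX proteins in blood cells. In A2780 the 3 libraries had TLE4 levels of 7.13, 7.38 and 7.20 log2 CPM, and in CP70 they had 5.54, 5.43 and 5.37. In PEA1 the levels were 5.68, 6.29 and 5.82 log2 CPM, and in PEA2 they were 4.36, 4.40 and 4.50. In PEO1 the levels were 3.95, 3.49 and 3.70 log2 CPM, and in PEO4 they were 0.64, 1.81 and 2.09. In each pair the resistant libraries lay below the sensitive ones with no overlap, which is what put the gene in the set. In bulk RNA, fewer cells with TLE4 and less TLE4 RNA in each cell cannot be told apart.

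The difference in TLE4 level was -1.79 ± 0.26 (log2, SE from the fit, 3 libraries a line) in CP70, or 3.45-fold lower. It was -1.51 ± 0.26, or 2.84-fold lower, in PEA2, and -2.21 ± 0.26, or 4.61-fold lower, in PEO4. The PEO4 value rests on few reads, 4, 10 and 10 in its 3 libraries against 47, 31 and 86 in PEO1, whereas A2780 had 328 to 645 TLE4 reads a library. The SE is the same in each pair because the 6 lines share 1 estimate of the spread in the fit. It thus does not show the wider scatter of the PEO4 libraries, with an SD of 0.77. After quantile normalization the PEO4 difference was -3.20. The pairs started from different levels. From the highest to the lowest, the mean TLE4 level was 7.23 ± 0.13 (SD, n = 3) in A2780, 5.93 ± 0.32 in PEA1, 5.45 ± 0.08 in CP70, 4.42 ± 0.07 in PEA2, 3.72 ± 0.23 in PEO1 and 1.51 ± 0.77 in PEO4. No neighbours in this order overlapped. The sensitive line PEO1 thus had less TLE4 RNA than the resistant lines CP70 and PEA2. The 6 line means spanned 5.72 log2 units, with the low end set by the few reads in PEO4. The median span over all 12853 genes was 1.88, but TLE4 was chosen on these levels, so its span is only a description.

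**Figure D1:**
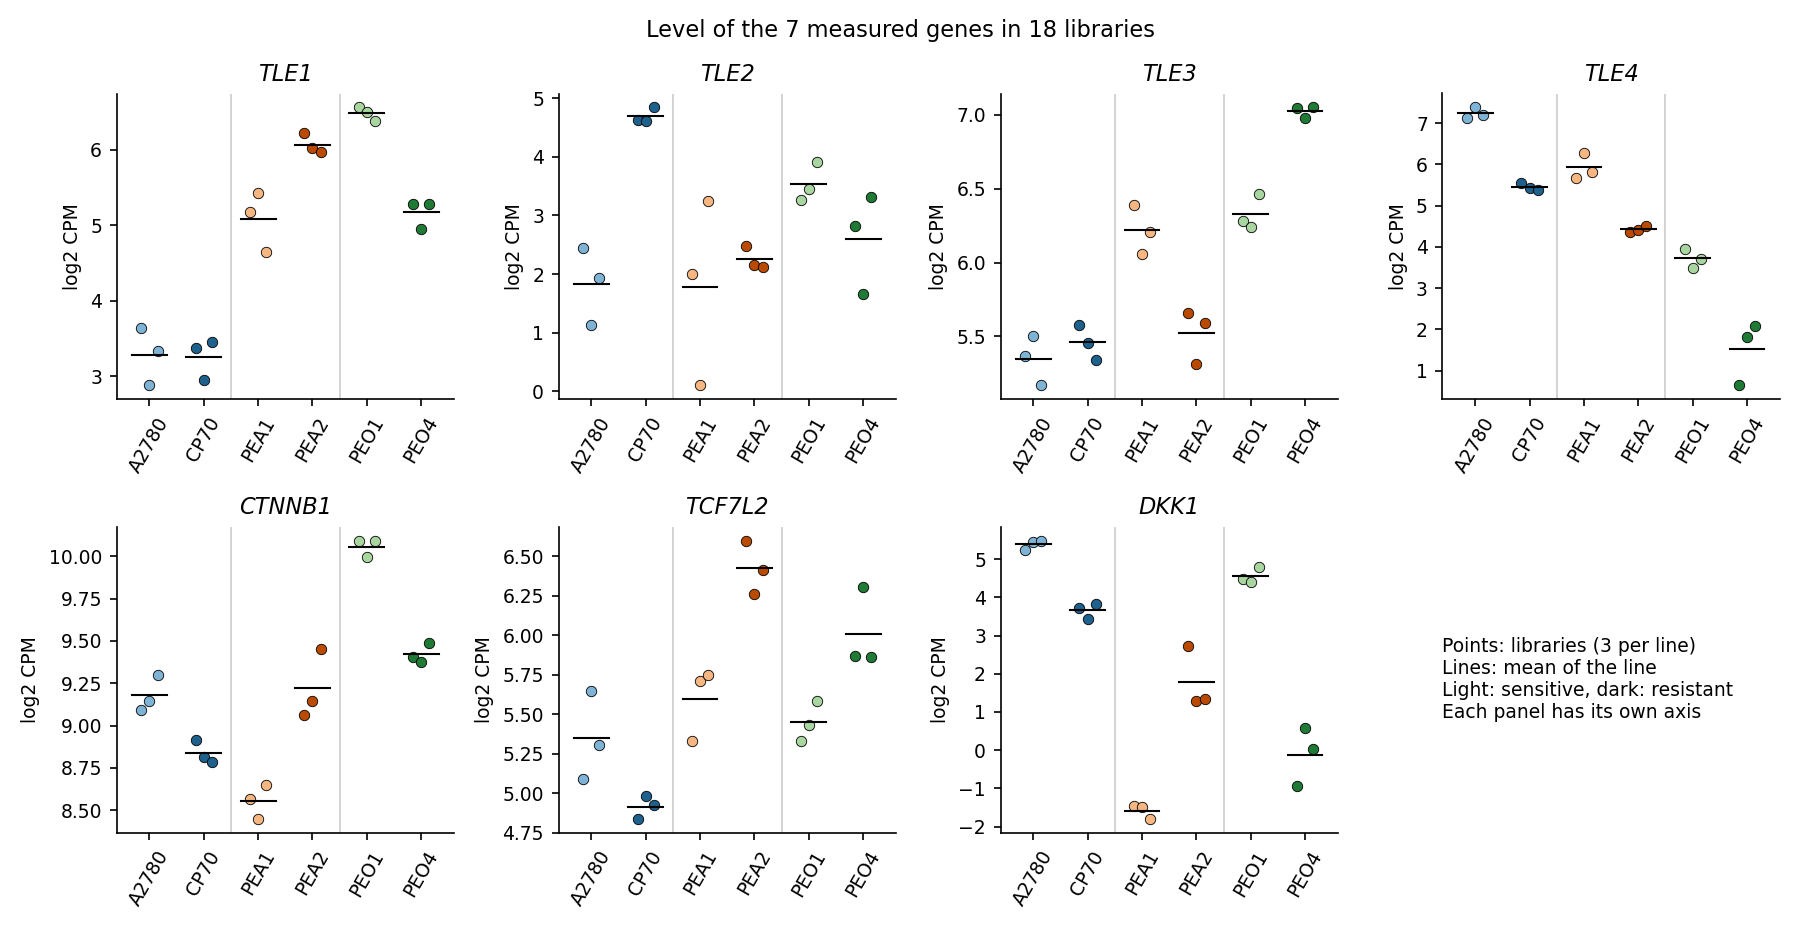
Levels of the 7 measured genes (log2 CPM, each panel with its own axis) in the 18 libraries of 6 lines; points are libraries and lines are means of 3. TLE4 is the lowest in PEO4, at 0.64 to 2.09, and DKK1 has 0 reads in all 3 PEA1 libraries, so its plotted level there is set by the 0.5 reads added before the log.

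The other 3 TLE genes encode co-repressors with the same domain plan, and none of them followed TLE4 in all pairs. TLE1 (ENSG00000196781) lies on chromosome 9 from 84198598 to 84304462 on the - strand, 1.86 Mb from the end of TLE4. Its levels were 3.64, 2.88 and 3.33 log2 CPM in A2780 and 3.38, 2.95 and 3.45 in CP70, with full overlap. In PEA1 they were 5.17, 5.43 and 4.65 and in PEA2 6.22, 6.01 and 5.96, so every PEA2 library was above every PEA1 library. In PEO1 they were 6.56, 6.50 and 6.38 and in PEO4 5.28, 4.95 and 5.28, so every PEO4 library was below. TLE1 rose by 0.98 ± 0.21 in PEA2 (limma, adjusted p = 4.14e-04) and fell by 1.31 ± 0.21 in PEO4 (limma, adjusted p = 3.88e-05). In CP70 the difference was -0.02 ± 0.21, and the test did not call it (limma, adjusted p = 0.943). The levels of TLE1 were highest in PEO1 (6.48 ± 0.09) and PEA2 (6.07 ± 0.13), followed by PEO4 (5.17 ± 0.19) and PEA1 (5.08 ± 0.40), which overlapped each other, and by A2780 (3.28 ± 0.38) and CP70 (3.26 ± 0.27), which also overlapped.

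TLE2 (ENSG00000065717) lies on chromosome 19 from 2997637 to 3047633 on the - strand. It was the sparsest TLE gene in the sensitive lines of the first 2 pairs, with 19, 8 and 8 reads in A2780 and 5, 1 and 16 reads in PEA1. Its levels were 2.45, 1.13 and 1.93 log2 CPM in A2780 and 4.63, 4.62 and 4.85 in CP70, so every CP70 library was above every A2780 library. TLE2 rose by 2.86 ± 0.56 in CP70, or 7.28-fold (limma, adjusted p = 3.27e-04). In PEA1 the levels were 2.00, 0.10 and 3.25 and in PEA2 2.49, 2.16 and 2.12, with the PEA2 libraries inside the wide range of PEA1. In PEO1 they were 3.27, 3.45 and 3.92 and in PEO4 2.83, 1.66 and 3.31, with a narrow overlap. Neither difference was called, at 0.47 ± 0.56 (limma, adjusted p = 0.477) for PEA2 and -0.94 ± 0.56 (limma, adjusted p = 0.191) for PEO4. The PEO4 value passed the threshold when that pair was fitted alone (limma, adjusted p = 0.042) or with read-based weights (voom in limma, adjusted p = 0.0323).

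TLE3 (ENSG00000140332) lies on chromosome 15 from 70340129 to 70390515 on the - strand and holds the microRNA gene MIR629 on the same strand. Its levels were 5.37, 5.50 and 5.17 log2 CPM in A2780 and 5.58, 5.46 and 5.34 in CP70, which overlapped. They were 6.39, 6.06 and 6.21 in PEA1 and 5.66, 5.32 and 5.59 in PEA2, and 6.28, 6.24 and 6.46 in PEO1 and 7.05, 6.98 and 7.05 in PEO4, with no overlap in either pair. TLE3 fell by 0.70 ± 0.12 in PEA2 (limma, adjusted p = 5.60e-05) and rose by 0.70 ± 0.12 in PEO4 (limma, adjusted p = 1.13e-04), the opposite of TLE1 in both pairs. In CP70 the difference was 0.11 ± 0.12 and was not called (limma, adjusted p = 0.481). TLE3 was highest in PEO4 (7.02 ± 0.04), the line with the least TLE4. PEO1 (6.33 ± 0.12) and PEA1 (6.22 ± 0.17) overlapped, as did PEA2 (5.52 ± 0.18) with CP70 (5.46 ± 0.12) and CP70 with A2780 (5.35 ± 0.17).

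To set the TLE genes against each other, their CPM were divided by the length of all annotated exons, 5.26 kb for TLE1, 4.14 kb for TLE2, 12.6 kb for TLE3 and 8.28 kb for TLE4, and expressed as a share of the sum over these 4 genes. The shares add to 100, so the low TLE4 of the resistant lines by itself raises the other shares, and the shares carry no test. In A2780, TLE4 made up 75.3% ± 3.9 (SD, n = 3) of the sum. In CP70 its share was 31.3% ± 2.0, and TLE2 had the largest share, 37.2% ± 2.9, up from 3.69% ± 1.73 in A2780. In PEA1, TLE4 (35.3% ± 5.4), TLE1 (30.9% ± 6.0) and TLE3 (28.4% ± 4.9) were close to each other. In PEA2, TLE1 had 63.5% ± 2.0 and TLE4 had 12.9% ± 1.5. In PEO1, TLE1 also led, with 61.1% ± 4.0, and TLE4 had 5.70% ± 0.83. In PEO4, TLE3 led with 54.3% ± 4.2, TLE1 had 35.8% ± 1.5 and TLE4 had 1.87% ± 0.88. The summed level per kb was 24.2 ± 1.2 CPM per kb in A2780 and 16.8 ± 0.7 in CP70, 21.0 ± 1.8 in PEA1 and 20.0 ± 1.5 in PEA2, and 27.8 ± 0.6 in PEO1 and 19.1 ± 1.9 in PEO4. The largest share thus passed from TLE4 to TLE2 between A2780 and CP70 and from TLE1 to TLE3 between PEO1 and PEO4. In PEA2 it was held by TLE1, whereas in PEA1 the lead of TLE4 was within the spread between libraries. In PEA1 replicate 1, TLE1 (33.2%) and TLE3 (32.4%) were above TLE4 (30.1%). With the length of the canonical transcript instead, a choice made after seeing the data, TLE3 passed both TLE1 and TLE4 in PEA1 (36.8%, ahead of TLE4 with 35.3% and TLE1 with 23.2%). In CP70 the lead of TLE2 (32.8% ± 2.9) over TLE4 (31.7% ± 1.6) was then within the spread between libraries. In the other 4 lines the gene with the largest share was the same.

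**Figure D2:**
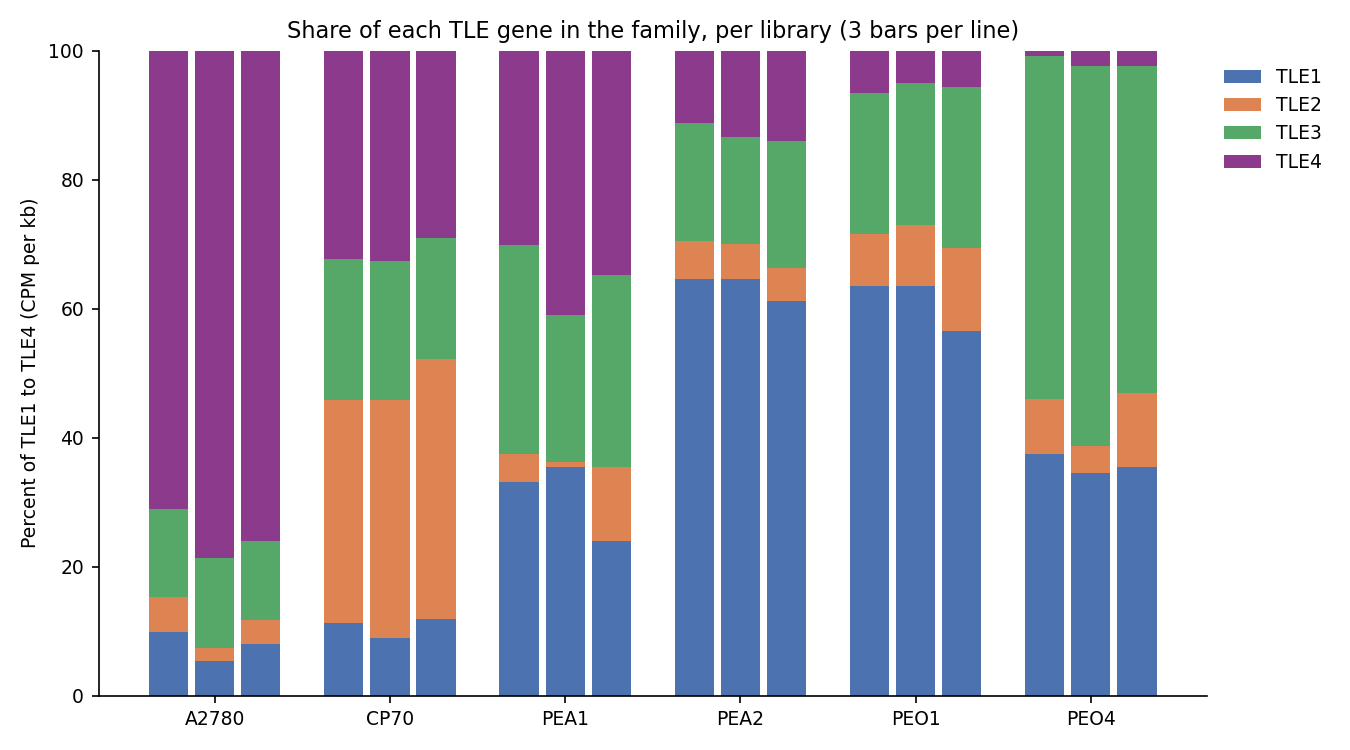
Share of each TLE gene in the summed level of TLE1 to TLE4 (percent of CPM per kb of exon), 1 bar per library and 3 bars per line. TLE4 takes 71.0% to 78.7% in A2780 and 0.85% to 2.38% in PEO4. The gene with the largest mean share differs between the lines of each pair, but in PEA1 the lead of TLE4 is within the spread between libraries.

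CTNNB1 (ENSG00000168036), the gene of beta-catenin, lies on chromosome 3 from 41236232 to 41301587 on the + strand, where ULK4 overlaps it on the other strand. Counting was made with a directional kit, but the strand setting is not given, so reads of ULK4 may be included. The A2780 libraries had 9.09, 9.14 and 9.30 log2 CPM and the CP70 libraries 8.92, 8.81 and 8.78, all below A2780. The PEA1 libraries had 8.57, 8.45 and 8.65 and the PEA2 libraries 9.06, 9.15 and 9.45, all above PEA1. The PEO1 libraries had 10.09, 9.99 and 10.09 and the PEO4 libraries 9.40, 9.38 and 9.49, all below PEO1. CTNNB1 fell by 0.34 ± 0.10 in CP70 (limma, adjusted p = 0.00772), rose by 0.66 ± 0.10 in PEA2 (limma, adjusted p = 6.26e-06) and fell by 0.63 ± 0.10 in PEO4 (limma, adjusted p = 2.30e-05). The largest of these was a 1.59-fold change in RNA, and protein, its phosphorylation and its place in the cell, by which beta-catenin is known to be regulated, were not measured here. The span of its 6 line means, 1.50 log2 units, was below the median span of all genes.

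TCF7L2 (ENSG00000148737), the TCF/LEF factor that holds either beta-catenin or a TLE protein, lies on chromosome 10 from 114710006 to 114927437 on the + strand. Its levels were 5.09, 5.65 and 5.31 log2 CPM in A2780 and 4.84, 4.98 and 4.92 in CP70. They were 5.33, 5.71 and 5.75 in PEA1 and 6.60, 6.26 and 6.41 in PEA2, and 5.33, 5.43 and 5.58 in PEO1 and 5.87, 6.30 and 5.86 in PEO4. The resistant libraries lay below the sensitive ones in the first pair and above them in the other 2, with no overlap. TCF7L2 rose by 0.83 ± 0.16 in PEA2 (limma, adjusted p = 1.51e-04) and by 0.56 ± 0.16 in PEO4 (limma, adjusted p = 0.00735). It fell by 0.43 ± 0.16 in CP70 (limma, adjusted p = 0.0358). The CP70 call was lost in 5 of the 6 fits that left out 1 library of that pair, with adjusted p up to 0.190 without A2780 replicate 2, and the PEO4 call was lost without PEO4 replicate 2 (limma, adjusted p = 0.0598).

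DKK1 (ENSG00000107984) lies on chromosome 10 from 54074041 to 54077802 on the + strand, and PRKG1-AS1 overlaps it on the other strand. Its product shuts off the Wnt signal at the cell surface. In A2780 the 3 libraries had 135, 167 and 99 DKK1 reads and levels of 5.24, 5.43 and 5.47 log2 CPM. In CP70 they had 80, 45 and 53 reads and levels of 3.72, 3.43 and 3.81, all below A2780. DKK1 fell by 1.73 ± 0.40 in CP70, or 3.31-fold (limma, adjusted p = 0.00147). In PEO1 the reads were 68, 59 and 183 and the levels 4.48, 4.41 and 4.79 log2 CPM. In PEO4 the reads were 1, 4 and 2 and the levels -0.95, 0.59 and 0.02, far below PEO1. DKK1 fell by 4.67 ± 0.40 in PEO4, or 25.5-fold (limma, adjusted p = 1.29e-08), the largest difference of any of the 6 tested genes in this pair.

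The PEA pair went the other way. PEA1 had 0 DKK1 reads in all 3 libraries, and PEA2 had 12, 8 and 5 reads, with levels of 2.74, 1.29 and 1.33 log2 CPM. Against 3 reads in each PEA1 library, DKK1 was at least 1.82-fold higher in PEA2. That bound rested on PEA2 replicate 1 and was 1.14-fold without it, an alternative tried after seeing the data. The fit called it higher (limma, adjusted p = 3.93e-07), but the fitted size of 3.37 ± 0.40 depends on the 0.5 reads added to each count and is no bound. By mean level the order of the lines was A2780 (5.38 ± 0.12), PEO1 (4.56 ± 0.20), CP70 (3.66 ± 0.20) and PEA2 (1.79 ± 0.82), with no overlap between neighbours. PEO4 and PEA1 were at the bottom, and at this depth their DKK1 levels could not be told apart. DKK1 had the widest span of line means of the 7 genes, 6.97 log2 units, with its low end set by the lines with few or 0 reads.

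**Figure D3:**
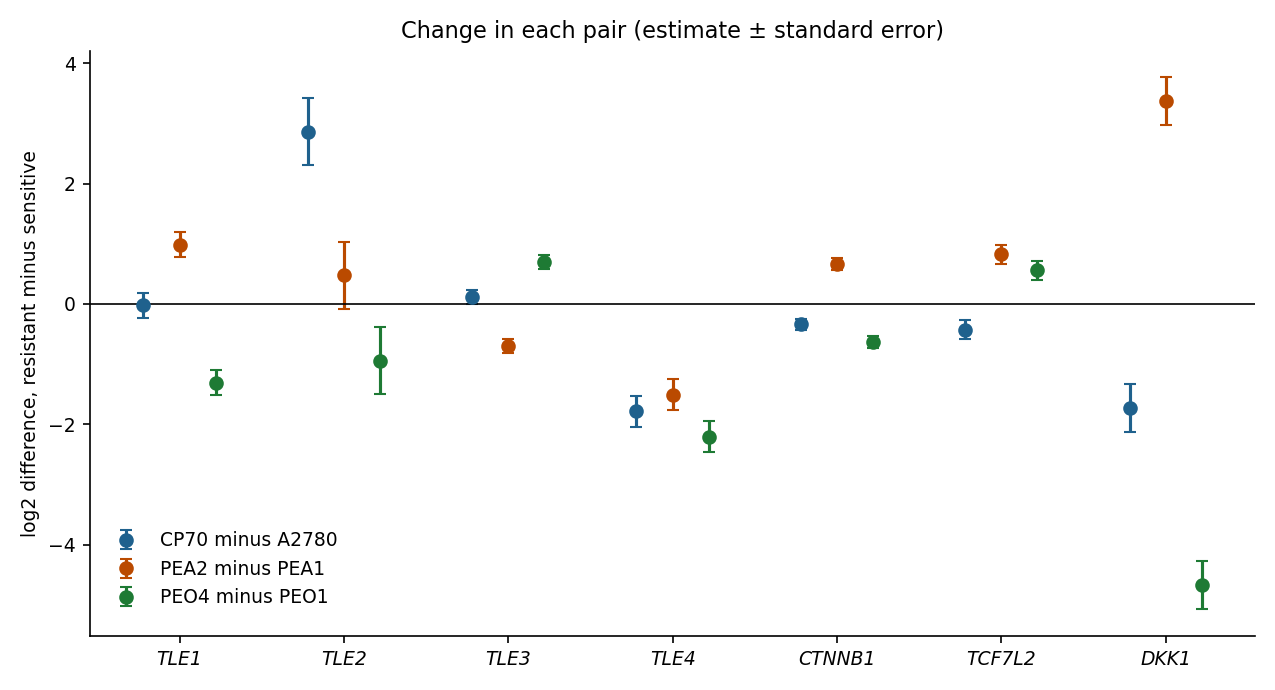
Log2 difference, resistant minus sensitive, of the 7 genes in each pair; points are limma estimates and bars ± 1 standard error. TLE4 is below 0 in all 3 pairs (-1.79, -1.51 and -2.21), by the choice of the gene, and each of the other 6 has estimates on both sides of 0; the DKK1 point for PEA2 depends on the reads added to a count of 0.

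Of the 6 tested genes, 4 were called in CP70 (1 higher, 3 lower), 5 in PEA2 (4 higher, 1 lower) and 5 in PEO4 (2 higher, 3 lower). The shares of all genes called, given above, were 39.9%, 61.9% and 41.5%, and 6 genes are too few to set against them. No gene among the 6 had a call of 1 sign in every pair. CTNNB1 and DKK1 had the same pattern of directions, lower in CP70, higher in PEA2 and lower in PEO4. The difference between pairs was then tested for each gene as the change in a pair minus the change in another. All 6 genes differed between the A2780 and PEA pairs, where 57.5% of all genes did. TLE1, TLE2, TLE3, TCF7L2 and DKK1 differed between the A2780 and PEO pairs, where 47.5% of all genes did. TLE1, TLE3, CTNNB1 and DKK1 differed between the PEA and PEO pairs, where 58.7% of all genes did. The change in CTNNB1 was 0.29 ± 0.14 log2 units higher in the A2780 pair than in the PEO pair, which was not called (limma, adjusted p = 0.085). For TCF7L2 the PEA and PEO pairs differed by 0.26 ± 0.22 (limma, adjusted p = 0.323), and for TLE2 they differed by 1.42 ± 0.79 (limma, adjusted p = 0.131). Without PEA1 replicate 3, the library with 16 TLE2 reads where the others had 5 and 1, the TLE2 difference was 2.15 and was called (limma, adjusted p = 0.0125).

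Other genes of the pathway were taken from a list of 116 in 9 roles, of which 80 were in the table. In CP70, 38 of the 80 were called (27 higher, 11 lower), or 47.5%, where 39.9% of all genes were. In PEA2, 57 were called (36 higher, 21 lower), or 71.3%, against 61.9%, and in PEO4, 34 were called (15 higher, 19 lower), or 42.5%, against 41.5%. The median difference of the 80 genes was 0.02, 0.20 and -0.06 in the 3 pairs, and that of all genes was -0.02, 0.01 and -0.02. Where every library of 1 line had 3 reads or fewer, the ratio of pooled reads with its exact 95% interval (Clopper-Pearson, counting error only) is given in place of the fitted value, or, where that line had 0 reads, a bound against 3 reads per library. With these values, and with genes so low in both lines left out, the list medians were 0.09, 0.33 and -0.13. Genes that low in both lines made up 2 of the calls in CP70, 3 in PEA2 and 0 in PEO4. Each role held 1 to 16 genes, so its counts describe those genes, beside 39.9%, 61.9% and 41.5% of all genes called in the 3 pairs.

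Receptors were the role with the most calls in CP70: 12 of 15 were called, 10 higher and 2 lower, with a median of 0.87, where 22.2% of all genes were higher and 17.7% lower. ROR2, a receptor for non-canonical Wnt ligands, rose by 3.12 ± 0.47 and had at most 4 reads in A2780 and up to 74 in CP70. ROR1, its relative, had 16 reads in CP70 and 2 in A2780, a ratio of 5.49 (1.29 to 49.2), and the libraries of these lines overlapped. FZD2 and LRP6, a Frizzled receptor and an LRP co-receptor, fell by 0.93 ± 0.23 and 0.32 ± 0.11. In PEA2, 11 of the 15 receptors were called, 6 higher and 5 lower: FZD3 rose by 2.20 ± 0.43, FZD8 had 47 reads against 3 (ratio 9.39, 3.02 to 47.2), and ROR1 fell by 2.42 ± 0.53. ROR2, also called lower there, had at most 1 read a library in PEA1 and 0 in PEA2, so no fold is given. In PEO4, 5 of the 15 were called, 4 higher (FZD8 by 2.02 ± 0.27, LGR6 by 1.81 ± 0.58) and FZD2 lower.

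Among 9 Wnt ligand genes, 1 was called in CP70, WNT5B, with 37 reads against 2 in A2780, a ratio of 12.7 (3.27 to 109). In PEA2, 7 were called, 5 higher and 2 lower. WNT7B rose by 3.99 ± 0.59 and WNT9A, with 0 reads in PEA1, was at least 4.87-fold higher. WNT5B fell by 3.16 ± 0.48, with at most 5 reads a library in PEA2. WNT2B had 140 reads in PEA1 and 4 in PEA2, a ratio of 58.4 (22.3 to 217). In PEO4, 5 were called, 1 higher and 4 lower. WNT11, best known for non-canonical signalling, had at most 4 reads a library in PEO1 and up to 114 in PEO4. Its fitted rise of 5.74 ± 0.72 thus depends on the 0.5 reads added to each count. WNT7B fell by 3.12 ± 0.59, WNT5B by 2.56 ± 0.48 (at most 10 reads a library in PEO4) and WNT10A by 1.45 ± 0.46. WNT7B and WNT5B thus had calls in opposite directions in different pairs. Of the 2 genes needed for Wnt secretion, 0 were called in CP70, 2 in PEA2 and 1 in PEO4. The single agonist of the R-spondin family in the table was called in CP70 at reads too few for a fold and was not called in the other pairs.

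Secreted and membrane inhibitors beside DKK1 numbered 7, with 3 called in CP70 (2 higher, 1 lower), 3 in PEA2 (2 higher, 1 lower) and 2 in PEO4 (both higher). ZNRF3, a ubiquitin ligase that removes Frizzled receptors from the membrane and is itself a Wnt target, was higher in all 3 resistant lines, by 1.43 ± 0.21, 0.55 ± 0.21 and 0.63 ± 0.21. Its levels overlapped between PEA1 and PEA2. DKK3 had 18 reads in A2780 and 1 in CP70, a ratio of 26.2 (4.14 to 1094), and rose by 0.71 ± 0.24 in PEA2. SFRP1 had 23 reads in PEA1 and 7 in PEA2, a ratio of 5.48 (2.28 to 15.1). KREMEN1 rose by 1.33 ± 0.22 in CP70, and APCDD1 rose by 4.70 ± 0.52 in PEO4.

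The cytoplasmic transduction genes, among them the destruction complex, numbered 16. In CP70, 6 were called, 3 higher and 3 lower, from APC2 (-1.25 ± 0.37) and CSNK1E (-0.60 ± 0.13) to CSNK1A1 (0.73 ± 0.09) and AXIN1 (0.80 ± 0.16). In PEA2, 12 were called, 10 higher and 2 lower, where 61.9% of all genes were called and 32.5% were higher. CSNK1E rose by 1.69 ± 0.13 and DVL1 by 1.63 ± 0.16, while TNKS fell by 1.39 ± 0.15 and AXIN1, the scaffold of the destruction complex, by 1.25 ± 0.16. In PEO4, 8 were called, 4 higher and 4 lower, between DVL3 (-0.69 ± 0.16) and BTRC (1.01 ± 0.20). AXIN1 was called in opposite directions in CP70 and PEA2.

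Nuclear cofactors of TCF/LEF and TLE proteins numbered 14, with 5 called in CP70 (4 higher, 1 lower), 11 in PEA2 (6 higher, 5 lower) and 5 in PEO4 (2 higher, 3 lower). TLE5, listed as AES, is a short family member without the repressor domain of the long TLE proteins and is known to act against them. TLE5 rose by 1.26 ± 0.13 in CP70, from 6.26 to 7.52 log2 CPM, and by 0.36 ± 0.13 in PEA2, where the libraries overlapped, and the PEO4 difference of 0.05 ± 0.13 was not called (limma, adjusted p = 0.783). TLE6 was not analysed here. TCF7L1, a mostly repressive TCF factor, rose by 1.31 ± 0.43 in CP70. It had 46 reads in PEA1 and 3 in PEA2, a ratio of 25.6 (8.22 to 129), and TCF7 fell by 2.35 ± 0.20 in PEA2. BCL9L, a cofactor of beta-catenin, rose by 0.81 ± 0.15 in CP70 and by 1.26 ± 0.15 in PEA2. In PEO4, PYGO1 fell by 2.20 ± 0.21 and TBL1X by 1.63 ± 0.15, while the deacetylase HDAC1 rose by 0.48 ± 0.11.

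Of 7 DNA-binding partners of TLE proteins, 5 were called in CP70 (3 higher, 2 lower), 6 in PEA2 (3 higher, 3 lower) and 3 in PEO4 (2 higher, 1 lower). RUNX2, the factor of bone formation, was lower in all 3 resistant lines. It fell by 6.92 ± 0.31 in CP70, from 191 to 344 reads a library in A2780 to 1 to 7 reads, by 1.42 ± 0.31 in PEA2 and by 1.93 ± 0.31 in PEO4. The PEO4 libraries had at most 5 RUNX2 reads. RUNX3 had 450 reads in CP70 and 4 in A2780, a ratio of 77.2 (29.9 to 284), and SIX3 had 229 and 1, a ratio of 157 (27.9 to 6230). In the PEA and PEO pairs both had 3 reads or fewer in every library, so no fold is given. Both are nevertheless among the 3 partners called lower in PEA2. RUNX1 fell by 2.16 ± 0.54 in CP70, a value that rests on at most 11 reads a library in A2780 and 9 in CP70. It rose by 1.62 ± 0.54 in PEA2 and 1.44 ± 0.54 in PEO4, with up to 392 and 1092 reads in these lines. HES1, a Notch target, rose by 1.38 ± 0.23 in PEO4, and HES6 had 19 reads in PEA2 and 2 in PEA1, a ratio of 5.70 (1.37 to 50.4).

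Known target genes of the pathway numbered 9 in the table. In CP70, 5 were called, 4 higher and 1 lower. TNFRSF19, a receptor of the tumour necrosis factor family, had 0 to 1 reads a library in A2780 and 819 to 1217 in CP70, a ratio of 1004 (278 to 8297). EPHB2 had 19 reads in CP70 and 3 in A2780, a ratio of 4.34 (1.28 to 22.9), and EPHB3 had 6 and 17, or 4.13 (1.55 to 12.8) in favour of A2780. CCND1, the gene of cyclin D1, rose by 0.33 ± 0.07. CD44, also called higher, had 0 reads in A2780 and at most 3 a library in CP70, so no fold is given. In PEA2, 5 were called, 3 higher and 2 lower. TNFRSF19, with at most 7 reads a library in PEA2, fell by 4.57 ± 0.52 and BIRC5 by 1.02 ± 0.14, while MMP7 rose by 2.27 ± 0.59. EPHB3 had 26 reads in PEA2 and 1 in PEA1, a ratio of 15.6 (2.56 to 639). In PEO4, 5 were called and all 5 were lower, where 41.5% of all genes were called and 21.9% were lower. TBX3, with at most 4 reads a library in PEO4, fell by 4.32 ± 0.68. TNFRSF19 was at least 1.97-fold lower with 0 reads in PEO4, CD44 fell by 2.08 ± 0.29, EPHB2 by 1.08 ± 0.40 and CCND1 by 0.54 ± 0.07. TNFRSF19 was thus called in all 3 pairs, and in the direction opposite to that of CP70 in the other 2.

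**Figure D4:**
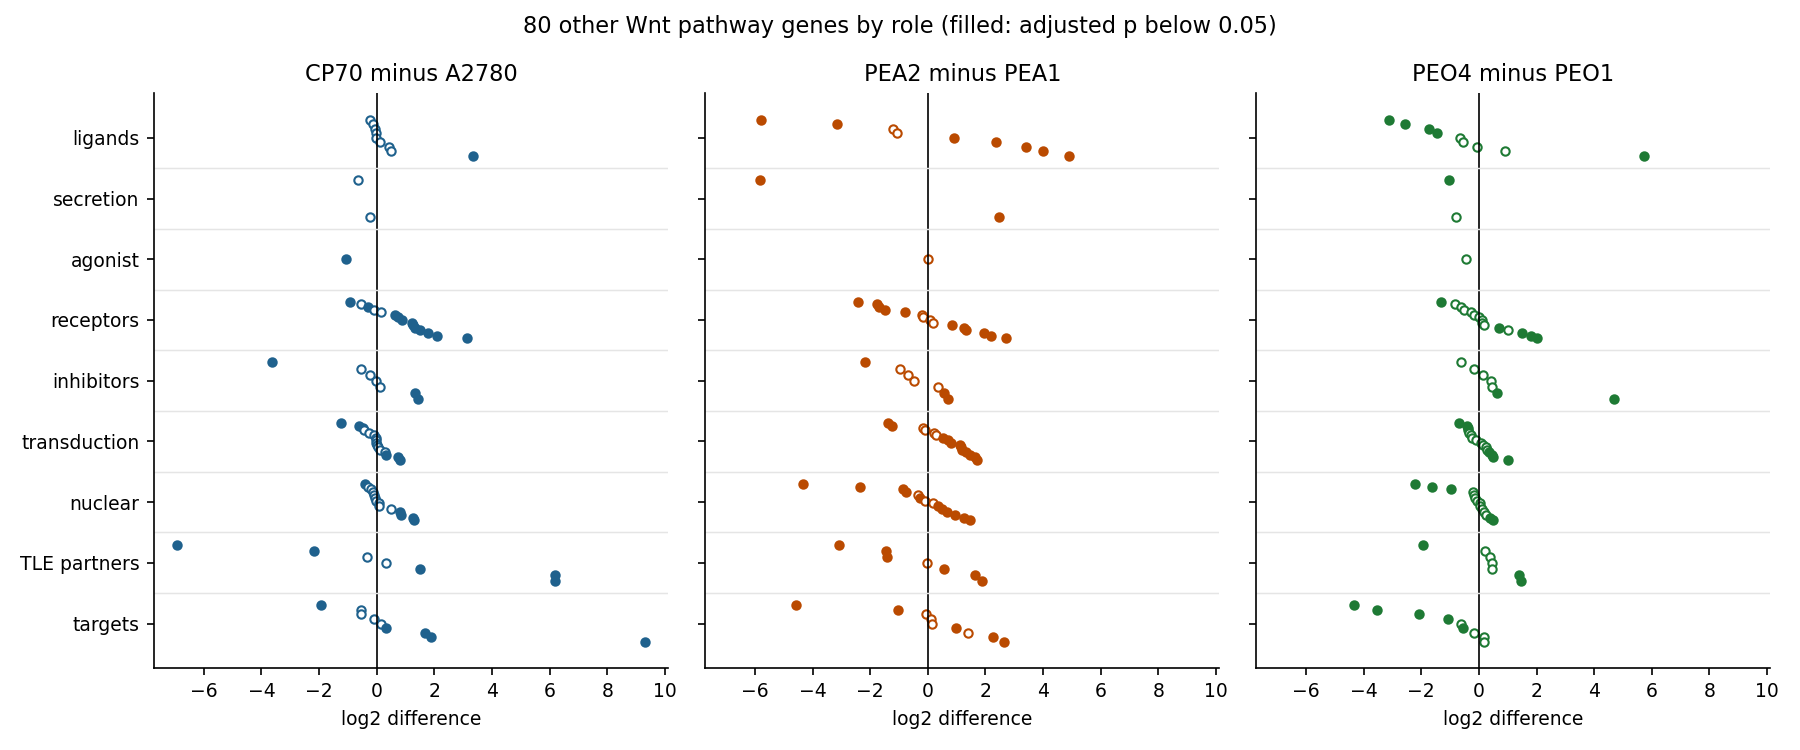
Log2 difference, resistant minus sensitive, of the 80 other Wnt pathway genes in each pair by role; each point is a gene, filled where the adjusted p is below 0.05. In CP70, 10 of the 15 receptors are filled to the right of 0, and in PEO4 the 5 filled target genes of 9 all lie to the left, where 21.9% of all genes were called lower; fitted values of genes at 3 reads or fewer in a line depend on the 0.5 reads added to each count.

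Across the 3 pairs, 11 of the 80 genes were called in every pair and 7 in none, and 29 had calls in both directions. FZD2 and RUNX2 were lower in all 3 resistant lines, as TLE4 was, and FZD8 and ZNRF3 were higher in all 3. Among all 12853 genes, 155 (1.21%) were lower and 205 (1.59%) higher in all 3. FZD2 went from 5.15 to 4.22 log2 CPM between A2780 and CP70, from 5.22 to 3.53 between PEA1 and PEA2 and from 4.65 to 3.32 between PEO1 and PEO4. FZD8 went from 5.63 to 6.51 log2 CPM between A2780 and CP70 and from 1.67 to 3.69 between PEO1 and PEO4, and it had 1 read in each PEA1 library and 11 to 19 in PEA2. With 2 of the 80 genes in each direction, the list is too small to set against these shares.

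The genes whose pattern over the 6 lines was most like that of TLE4 were found by Pearson's r of the line means, over 11227 genes with a mean level above 2 log2 CPM. The 5 highest were YOD1 (r = 0.996), MICOS10 (0.993), EARS2 (0.991), NSMF (0.988) and CEP44 (0.986). YOD1, which encodes a deubiquitinase, had a mean level of 6.70 log2 CPM in A2780, 5.80 in CP70, 5.94 in PEA1, 5.06 in PEA2, 4.48 in PEO1 and 3.43 in PEO4, the same order of lines as TLE4. An r above 0.9 was found for 204 genes (1.82%), with 6 points each that share libraries and depth, and the names at the top depended on the measure: 1 of the 5 stayed in the top 5 with r over the 18 libraries. The order of the 6 lines was the same as for TLE4 in 27 genes, 4 of these 5 among them. None of the other measured genes of the set came near. The r with TLE4 was 0.36 for DKK1, -0.20 for TLE2, -0.48 for TCF7L2, -0.52 for CTNNB1, -0.58 for TLE1 and -0.81 for TLE3. These values describe 6 lines and carry no test.

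The 10 listed genes on each side of TLE4 on chromosome 9 lay between 3.18 Mb before it and 6.54 Mb after it, the nearest 0.18 Mb away. TLE1 is the next listed gene after TLE4. In CP70, 2 of the 20 neighbours were called lower and 8 higher, where 17.7% of all genes were lower and 22.2% higher, and the median difference was -0.09. In PEA2, 6 were lower and 3 higher, where 29.4% of all genes were lower and 32.5% higher, and the median was 0.04. In PEO4, 9 were lower and 0 higher, where 21.9% of all genes were lower and 19.6% higher, and the median was -0.33. AGTPBP1, ISCA1, PRUNE2 and RFK were called in all 3 pairs. AGTPBP1, ISCA1 and PRUNE2 were higher in CP70 (0.57, 0.62 and 1.58) and lower in PEA2 (-0.51, -0.77 and -6.18) and PEO4 (-0.84, -0.61 and -3.62). RFK was higher in CP70 (0.51) and PEA2 (0.43) and lower in PEO4 (-1.28). None of the 20 was called lower in all 3 pairs, whereas TLE4, by its choice, was lower in each. DNA copy number was not measured in these files.

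**Figure D5:**
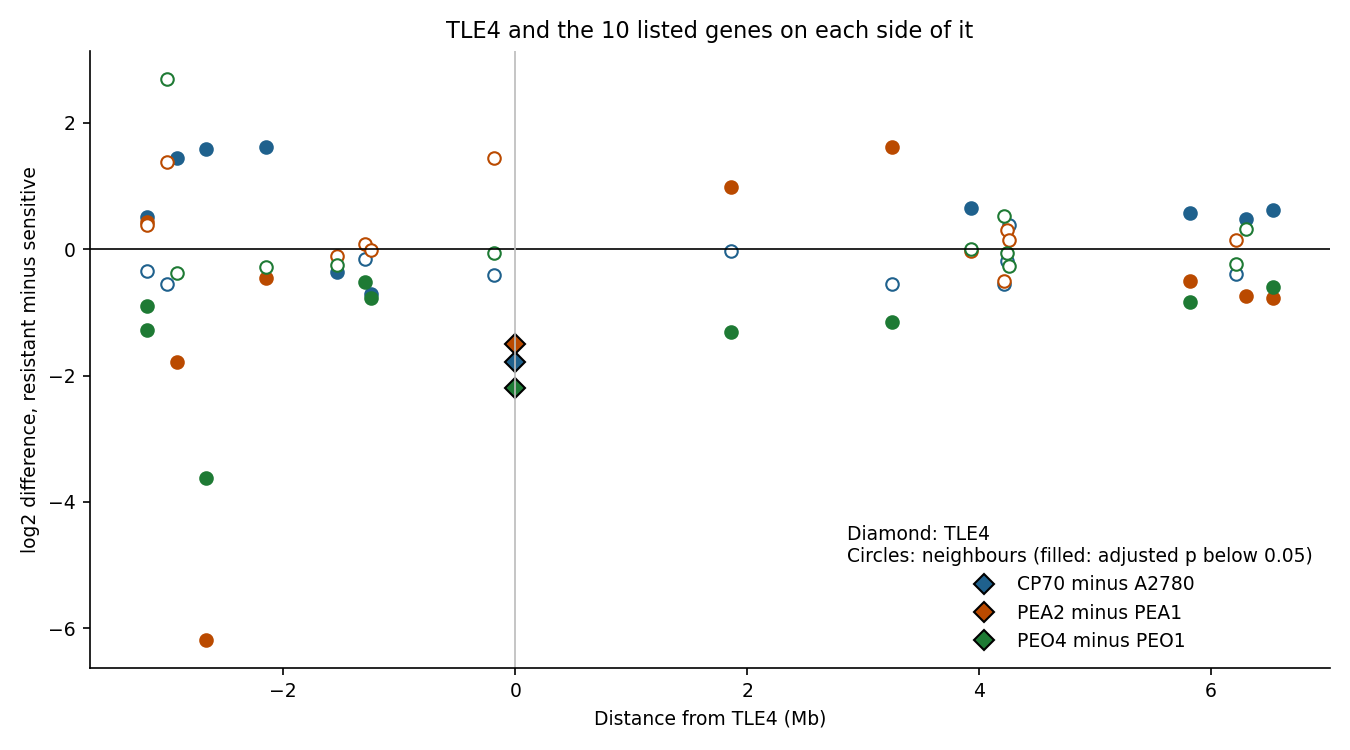
Log2 difference, resistant minus sensitive, of TLE4 (diamonds) and of the 10 listed genes on each side (circles, filled where the adjusted p is below 0.05) against their distance from TLE4 in Mb. In PEO4, 9 of the 20 neighbours are lower and 0 higher, where 21.9% of all genes were lower and 19.6% higher. In CP70, 2 are lower and 8 higher (17.7% and 22.2% of all genes), and in PEA2, 6 are lower and 3 higher (29.4% and 32.5%).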

How the data were processed

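RNA-seq was made from rRNA-depleted total RNA with the NEBNext Ultra Directional kit. Per the submitters' processing notes, Bowtie2, featureCounts, limma and hg19 were used; versions, the strand setting of the counting and the filter that left 12853 genes are not given in the sources used here. The authors deposited log2 CPM values, log2 of reads + 0.5 over a scaled library size, in 1 table with all 18 libraries. Whole reads could be recovered for 100% of the values (within 0.01 reads), and these gave the depths and the read counts printed here. Counting error alone was below the spread between libraries of a line (chi-square per degree of freedom 1.74 to 13.5).

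A mean per line was fitted to the 18 libraries in limma 3.58.1 (R 4.3.3; empirical Bayes with a trend), with no covariate. The lines share 1 estimate of the spread of a gene, so its SE is the same in every pair. Contrasts within and between pairs had their p-values corrected with the Benjamini-Hochberg procedure across the 12853 genes and were called below 0.05. The fit was tested on simulated data with the same spread setting for every gene, which lends no support to the calls in the real libraries. Where all libraries of a line had 3 reads or fewer, the ratio of pooled reads over pooled library sizes with its exact 95% interval was used, or, for a line with 0 reads, a bound against 3 reads per library. Gene spans and exon lengths are from GENCODE lifted to GRCh37. The genes, the Wnt list and the tests were chosen with earlier results of these data known. Named beside the set were, in each pair, the called genes with the 2 highest and 2 lowest differences in each role of at least 5 genes, ZNRF3, TNFRSF19 and TLE5, the 5 genes most like TLE4, and neighbours called in all 3 pairs. Genes that complete a count of 5 or fewer (CD44 in CP70 and PEO4, FZD8, FZD2 and RUNX2 in some pairs) were named after their values were seen. Alternatives were another scaling, weights, filters, thresholds, a replicate block and each library left out. Same-numbered libraries of a pair showed no regular shared deviation, so the number was not used as a pairing. The r was mixed in sign, from -0.184 for replicate 1 of PEA1 and PEA2 to 0.220 for replicate 1 of A2780 and CP70.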

Additional observations from a re-analysis of the deposited data

Results flagged for a closer look

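The changes of the 6 tested genes differed between pairs in 15 comparisons of the difference itself (limma, adjusted p below 0.05 over all genes). Values are the log2 change in the pair named first minus that in the second, where 57.5%, 47.5% and 58.7% of all genes differed likewise. Between the A2780 and PEA pairs the values were 2.39 for TLE2, 0.81 for TLE3, -1.01 for both TLE1 and CTNNB1, -1.26 for TCF7L2 and -5.10 for DKK1. Between the A2780 and PEO pairs they were 3.81 for TLE2, 2.95 for DKK1, 1.29 for TLE1, -0.58 for TLE3 and -0.99 for TCF7L2. The PEA and PEO pairs differed by 8.04 for DKK1, 2.30 for TLE1, 1.30 for CTNNB1 and -1.39 for TLE3. The size of the DKK1 values that involve the PEA pair depends on the reads added to counts of 0 in PEA1. The TLE2 value between the A2780 and PEA pairs was not called after quantile normalization (1.76, adjusted p = 0.117), and PEA1 had 5, 1 and 16 TLE2 reads.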

How the results depend on the processing

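None of the values reported changed sign while called under any alternative. With a log2 difference above 1 required beside the adjusted p, 2, 1 and 2 of the 6 tested genes were called in CP70, PEA2 and PEO4, 24 and 21 of the 80 Wnt genes in CP70 and PEO4, and 3 of the 6 genes differed between the A2780 and PEO pairs. Above 2, these were 1, 1 and 1 genes, 9, 18 and 9 Wnt genes, and 2 genes differed in each of the 3 comparisons of pairs. Not given here are the shares of all genes at these cutoffs and the Wnt count in PEA2 above 1. The counts therefore describe only the genes named. Quantile normalization moved the median of all genes by -0.105 in the PEA pair and gave -3.20 for TLE4 in PEO4. It kept 3 of the 5 genes most like TLE4, and r over the 18 libraries kept 1. Spearman's rho kept 1 only by the order in which ties were read: 27 genes had a rho of 1, 4 of the 5 among them. With 5 neighbours on each side, 4, 3 and 4 of them were called. Leaving out each library in turn gave 3 to 4, 5 and 4 to 5 tested genes called, 33 to 40, 54 to 58 and 26 to 36 Wnt genes, 6 to 10, 8 to 9 and 7 to 10 neighbours, and 3 to 5 of the 5 likeness genes. Among all 12853 genes, the calls also moved, from 4411 to 5271, 7424 to 8024 and 4599 to 5461. CP70 neighbours numbered 6 without A2780 replicate 1 or without CP70 replicate 1. TLE4 ranged from -1.84 to -1.71, -1.63 to -1.33 and -2.49 to -1.77 in these fits. Without DKK1, an alternative chosen after seeing the data, 3, 4 and 4 of 5 genes were called.

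With a replicate block, 4, 5 and 5 of the 6 genes and 37, 56 and 33 Wnt genes were called, and no count moved by over 1.5 times. Of all 12853 genes, 4980, 7899 and 5197 were called with the block, against 5124, 7958 and 5336 in the main fit. TCF7L2 in CP70 was not called without the trend (adjusted p = 0.0542). CTNNB1 differed between the A2780 and PEO pairs after quantile normalization (0.34, adjusted p = 0.0432), with voom weights (0.31, adjusted p = 0.0334) and without PEA2 replicate 3 (0.29, adjusted p = 0.046). Depth limits DKK1 in PEA1 and PEO4, TLE2 in PEA1 and TLE4 in PEO4, and 1 line a side limits every comparison to these lines.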
